A study of Mus musculus with 6 samples.

Results

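The higher of the study's 2 doses of KN93, 10 µM, was compared with PBS in mouse bone marrow-derived macrophages. The comparison took the 2 samples given 10 µM KN93 and the 2 samples given PBS, out of 6 samples in the series, and every gene that reached 1 FPKM in at least 2 of these 4 samples. That left 12532 of the 54446 entries of the deposited table. FPKM, the unit of all levels here, is fragments per kilobase of gene, scaled to the depth of the library. The cells came from C57BL/6 mice aged 6 weeks, and the labels give no genetic change, so the 2 groups differed by label only in the compound. PBS is the buffer control, and the labels name no other additive in it and no inactive analog of KN93. The remaining 2 samples had been given 5 µM KN93 and appear only for the level between the 2 groups. The duration of treatment is not given in the sources used here, nor is the meaning of the prefix DXM that every column name carries. Whether the 2 samples of a group are separate cultures or animals is not stated. The p-values therefore measure only how these samples spread, and that spread may be technical.

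KN93 is a small molecule that inhibits CaMKII and CaMKIV, protein kinases that depend on calcium and calmodulin, by interfering with their activation by calmodulin, and it is known to act on other targets as well, among them ion channels. When calcium rises in a cell, calmodulin binds it and switches these kinases on, and they phosphorylate transcription factors, channels and signalling enzymes. Macrophages are phagocytes that engulf particles and dying cells, digest them in lysosomes, present antigens, and release cytokines and chemokines. Marrow cells become macrophages in culture under the growth factor CSF1, and such cultures can keep some stromal or granulocytic cells of the marrow.

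The libraries implied totals of 24172000 to 28384000 fragments in these 4 samples, and the replicates of PBS and of 10 µM correlated at 0.9903 and 0.9904 across genes (Pearson's r on log2(FPKM + 1), a description over genes, which are not independent replicates). Pairs of 1 PBS and 1 10 µM sample lay at 0.9293 to 0.9343. Differences between groups were taken between log2(FPKM + 1) values, so that changes of low genes come out smaller than their ratios, and are given with the standard error from limma, a linear model for expression data. A gene was called where its Benjamini-Hochberg adjusted p over all 12532 tested genes was under 0.05, and only called genes are said to have risen or fallen. The 2 samples in each group limit the precision of every value.

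Of the genes that encode the kinases KN93 is known for, Camk2g was measured at 7.36 and 7.56 FPKM with PBS and 5.27 and 4.79 FPKM at 10 µM and fell (log2 change -0.49 ± 0.06, limma adjusted p = 0.00139). Camk2d, at 3.47 and 3.52 FPKM with PBS and 4.19 and 3.74 FPKM at 10 µM, did not pass (limma adjusted p = 0.127). Camk2a, Camk2b and Camk4 lay under the filter: Camk2a at 0.0647 and 0.0662 FPKM with PBS and 0.0554 and 0.0519 FPKM at 10 µM, Camk2b at 0.407 and 0.41 FPKM with PBS and 0.394 and 0.374 FPKM at 10 µM and Camk4 at 0.0874 and 0.063 FPKM with PBS and 0.0101 and 0.0229 FPKM at 10 µM. An inhibitor of kinase activity need not change these transcripts, so they do not check the labels. Camk2n2, which encodes a protein inhibitor of CaMKII, rose from 0.576 and 0.656 to 2.18 and 1.86 FPKM (log2 change 0.90 ± 0.15, limma adjusted p = 0.00404). Around the kinases, Camkk1, an activating kinase of CaMKI and CaMKIV, fell from 5.63 and 4.61 to 0.999 and 0.832 FPKM and Camk1d from 14.9 and 13.8 to 4.78 and 4.83 FPKM. Camkk1 passed the filter through the PBS samples alone and Camk2n2 through the 10 µM samples alone. Each of these could only be tested in 1 direction. The calmodulin gene Calm3 was lower as well, with a log2 change of -0.43, and Calm2 did not pass (-0.13, limma adjusted p = 0.0836). In the whole CaMK and calmodulin list 2 of the 10 tested members rose and 5 fell, with a median log2 change of -0.23.

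A large part of the transcriptome differed between 10 µM KN93 and PBS. Of the 12532 genes, 6442 were called (51.4%), with 3639 higher (29.0%) and 2803 lower (22.4%). The values of the 2 groups did not overlap for 9680 genes (77.2%). Among large changes there were more falls than rises: 394 genes rose at least 2-fold (3.14%) and 605 fell at least 2-fold (4.83%), 63 rose and 117 fell at least 4-fold, and 12 rose and 34 fell at least 8-fold. The median log2 change was 0.05 over all tested genes, 0.41 among the genes that rose and -0.54 among those that fell, and 3558 of the calls were of changes under 0.5 on the log2 scale. With so many genes called, a call alone says little about a gene list, and the shares above are the background for every list described here. A gene could also pass the filter through 1 group alone, and such a gene had to differ, so list counts are descriptions of the tested members only.

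**Figure D1:**
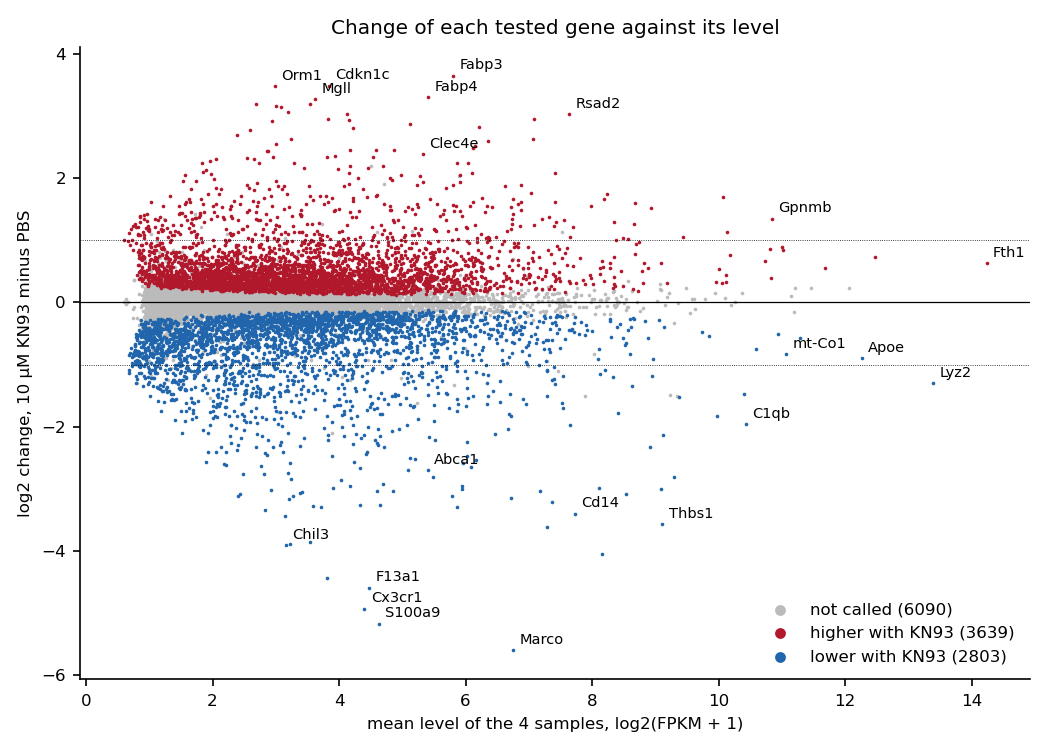
Change of each of the 12532 tested genes between 10 µM KN93 and PBS (vertical axis, log2 of FPKM + 1) against its mean level in the 4 samples (horizontal axis, same scale). Red points are the 3639 genes called higher, blue points the 2803 called lower, grey points the rest, and dotted lines mark 2-fold. The largest falls reach further from 0 (Marco at -5.60) than the largest rises (Fabp3 at 3.65).

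On the log2(FPKM + 1) scale Fabp3 had the largest rise, and Fabp4 and Mgll, also of lipid handling, were among the 12 largest. Fabp3, a fatty acid binding protein best known from heart muscle, stood at 7.09 and 7.33 FPKM with PBS, 47.2 and 48.6 FPKM at 5 µM and 101 and 103 FPKM at 10 µM. Its relative Fabp4, the form of adipocytes and macrophages, stood at 6.25 and 7.41 FPKM with PBS, 36.2 and 34.9 FPKM at 5 µM and 70.8 and 81.7 FPKM at 10 µM, and Mgll, monoacylglycerol lipase, at 1.22 and 1.39 FPKM with PBS, 9.88 and 9.52 FPKM at 5 µM and 20.2 and 22.3 FPKM at 10 µM. The choice of the leading genes required PBS and 10 µM samples that did not overlap. In all 3 genes the 5 µM samples lay between them. The log2 changes were 3.65 ± 0.04 for Fabp3 (limma adjusted p = 2.79e-06), 3.30 ± 0.10 for Fabp4 (limma adjusted p = 1.68e-05) and 3.27 ± 0.07 for Mgll (limma adjusted p = 1.1e-05). Fabp5 (1.60), the lectin Lgals3 (1.70), the aminopeptidase Anpep (2.63) and the nuclear receptor Pparg (1.04), which controls lipid storage genes, were called higher too. Lpl, lipoprotein lipase, fell (-1.63), and Trem2, a lipid-sensing receptor, did not pass (0.12, limma adjusted p = 0.31). Over the whole list of fatty acid handling and lipid-associated macrophage genes, 12 of the 22 tested members rose and 5 fell, with a median log2 change of 0.43.

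The other leading rises came from unlike families. Cdkn1c encodes p57, an inhibitor of cyclin-dependent kinases, and went from 0.966 and 1.73 to 21.3 and 29.4 FPKM (log2 change 3.49 ± 0.20, limma adjusted p = 9.82e-05). Orm1 encodes an acute-phase plasma glycoprotein and was near 0 with PBS, at 0.288 and 0.273 FPKM with PBS and 10.7 and 16.6 FPKM at 10 µM (log2 change 3.48 ± 0.22, limma adjusted p = 0.000136). Vwf, von Willebrand factor, and Cox6a2, the muscle form of a cytochrome c oxidase subunit, also started low: Vwf went from 0.669 and 0.782 to 13.8 and 14.6 FPKM and Cox6a2 from 1.15 and 1.45 to 19.6 and 20.3 FPKM. Both groups were apart for each of these 4 genes, which the choice of the leading genes required. Cst7, for cystatin F, which inhibits cysteine proteases in lysosomes, rose from 2.94 and 2.65 to 31 and 29.2 FPKM, and Ptgir, the prostacyclin receptor, from 2.49 and 2.03 to 23.1 and 25.3 FPKM. Sh2d6 (3.20), Rsad2 (3.03) and H2-Q6 (2.95) complete the 12 largest rises among genes with a name (gene models known only by a Gm number are left out). On GRCm38 (GENCODE M21), Cdkn1c lies on chromosome 7, 143458339 to 143461050, Orm1 on chromosome 4, 63344560 to 63348163 and Vwf on chromosome 6, 125546774 to 125686679.

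The largest falls were of surface receptors, secreted inflammatory proteins and matrix proteins. Marco, a scavenger receptor that binds bacteria and particles, stood at 217 and 203 FPKM with PBS, 65.6 and 63.5 FPKM at 5 µM and 3.29 and 3.44 FPKM at 10 µM (log2 change -5.60 ± 0.05, limma adjusted p = 1.4e-06), a 62.4-fold lower mean FPKM. Cx3cr1, the fractalkine receptor of monocytes, stood at 36.3 and 43.5 FPKM with PBS and 0.285 and 0.399 FPKM at 10 µM (log2 change -4.93 ± 0.13, limma adjusted p = 1.33e-05). Cd14, the co-receptor for lipopolysaccharide, dropped from 389 and 381 to 33.1 and 38.2 FPKM (log2 change -3.40 ± 0.12, limma adjusted p = 2.47e-05). The leading falls were chosen among genes whose 2 groups did not overlap, so that separation is no result. Cx3cr1 and the other genes here under 1 FPKM in both 10 µM samples passed the filter through PBS alone. They could only be tested as falls. Among secreted proteins, the acute-phase protein gene Saa3 went from 628 and 445 to 31 and 31 FPKM and the calprotectin subunit S100a9 from 45.3 and 48.9 to 0.475 and 0.203 FPKM. The cytokine interleukin-1β, Il1b, went from 21.6 and 11.6 to 0.173 and 0.111 FPKM, with a wide gap between the PBS samples themselves. Chil3, a chitinase-like protein, and Arg1, arginase 1, both marks of alternatively activated macrophages, went from 15.7 and 15.9 to 0.228 and 0.0216 FPKM and from 14.2 and 16.2 to 0.557 and 0.427 FPKM. F13a1, Ngp, Cemip and Thbs1 were the remaining 4 of the 12, with log2 changes of -4.59, -4.43, -3.86 and -3.57. Marco lies on chromosome 1, 120474538 to 120505024 and Saa3 on chromosome 7, 46711998 to 46715700 (GRCm38). Since these are bulk samples, fewer cells of a type and less RNA per cell cannot be told apart.

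**Figure D2:**
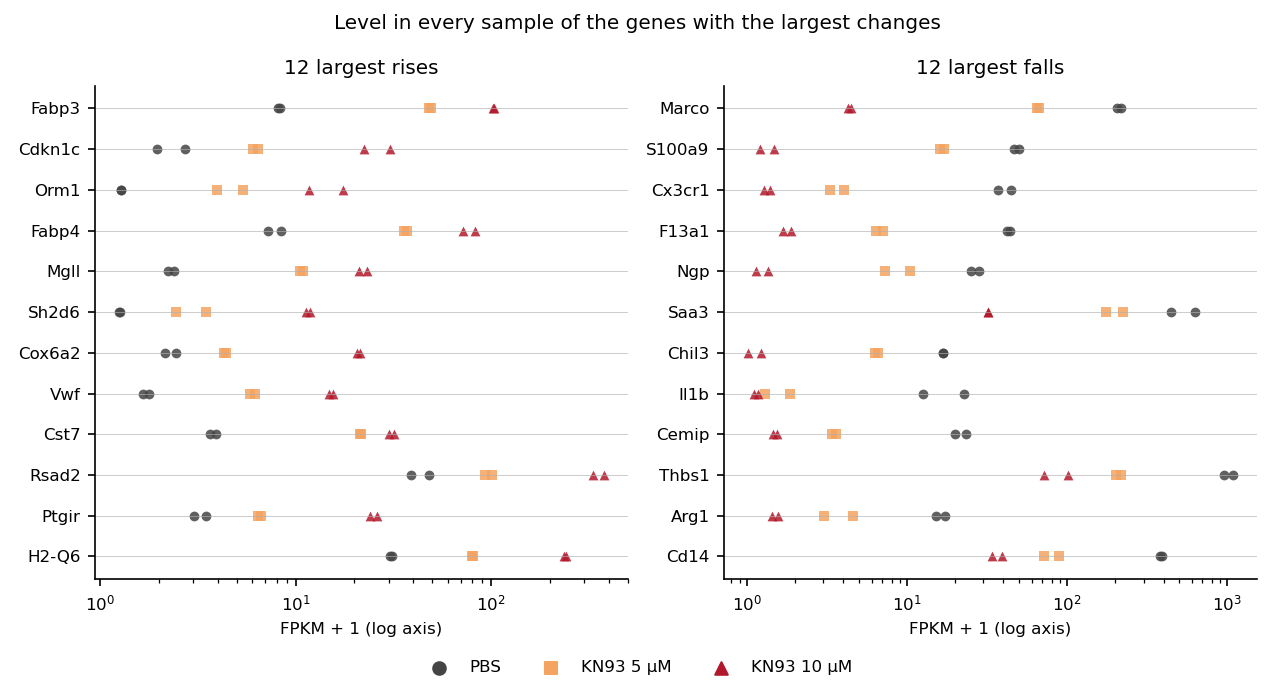
FPKM + 1 (horizontal log axis) in every sample for the named genes with the 12 largest rises and the 12 largest falls. Circles are PBS, squares 5 µM and triangles 10 µM, 2 samples each. The 24 genes were chosen among called genes whose PBS and 10 µM samples do not overlap, so that separation is no result. The 5 µM samples lie between them.

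Some genes crossed from nearly silent to clearly measured or back. Only called named genes whose 2 groups did not overlap were counted. By mean FPKM, 14 of them went from under 1 with PBS to at least 5 at 10 µM, and 37 went from at least 5 to under 1. Besides Orm1, Sh2d6 and Vwf, the first group held Gbp11, an interferon-induced GTPase (0.607 and 0.472 to 10.7 and 8.36 FPKM), Gsta4, a glutathione transferase for lipid peroxidation products (0.411 and 0.39 to 9.02 and 7.21 FPKM), Htr2b, a serotonin receptor (0.401 and 0.364 to 5.01 and 6.83 FPKM), and Bex1 (0.313 and 0.298 to 4.08 and 6.83 FPKM). It also held the T cell receptor segments Trav13-4-dv7 and Trav14-3 and the microRNA gene Mir7682. The segments belong to a family of near-identical genes that can share fragments, so their values are uncertain. The call of Mir7682 was lost with no filter on low values, without the PBS replicate 1 and without either 10 µM replicate (highest limma adjusted p = 0.0716). Among the genes that went down, Dio3, a thyroid hormone deiodinase, went from 13.3 and 10.6 to 0.306 and 0.243 FPKM and Pilrb1, an activating immunoglobulin-like receptor, from 18.6 and 12.7 to 0.782 and 0.882 FPKM.

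In absolute level, the rises were led by ferritin and lysosomal proteins, the falls by lysozyme, apolipoprotein E and complement. Fth1, ferritin heavy chain, stood at 15160.3 and 15192 FPKM with PBS and 22730.2 and 24216 FPKM at 10 µM (log2 change 0.63 ± 0.12, limma adjusted p = 0.00656), and Ftl1, the light chain, at 2554 and 2761 FPKM with PBS and 3702 and 4087 FPKM at 10 µM (log2 change 0.55 ± 0.09, limma adjusted p = 0.00423). Psap, the precursor of the saposins that help degrade sphingolipids, stood at 4021 and 4442 FPKM with PBS and 6923 and 7239 FPKM at 10 µM, and Gpnmb, a lysosomal glycoprotein, at 1004 and 1069 FPKM with PBS and 2615 and 2665 FPKM at 10 µM. Ctsz, H2-D1, Lgals3 and Bst2 were the other 4 of the 8 largest rises in FPKM, with mean FPKM 1.85-, 1.79-, 3.26- and 1.81-fold higher. In the other direction Lyz2, lysozyme, stood at 15399.7 and 15052 FPKM with PBS and 5849 and 6568 FPKM at 10 µM, Apoe at 6149 and 6657 FPKM with PBS and 3092 and 3805 FPKM at 10 µM and C1qb, a chain of complement C1q, at 2234 and 2158 FPKM with PBS and 547 and 579 FPKM at 10 µM. C1qa, the cytoskeletal genes Tmsb4x and Actb, and the mitochondrial mt-Co1 and mt-Co2 completed the 8 largest falls. The call of Fth1 was lost without either PBS replicate and with quantile normalization, and with no filter on low values the calls of Fth1, Ftl1, Psap, Lyz2, Apoe and Actb were lost (highest limma adjusted p = 0.707 for Fth1, 0.171 for Ftl1, 0.241 for Psap, 0.186 for Lyz2, 0.111 for Apoe and 0.0963 for Actb). The call of mt-Co2 was lost in that setting too, and without either PBS replicate or the 10 µM replicate 2 (highest limma adjusted p = 0.0942).

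**Figure D3:**
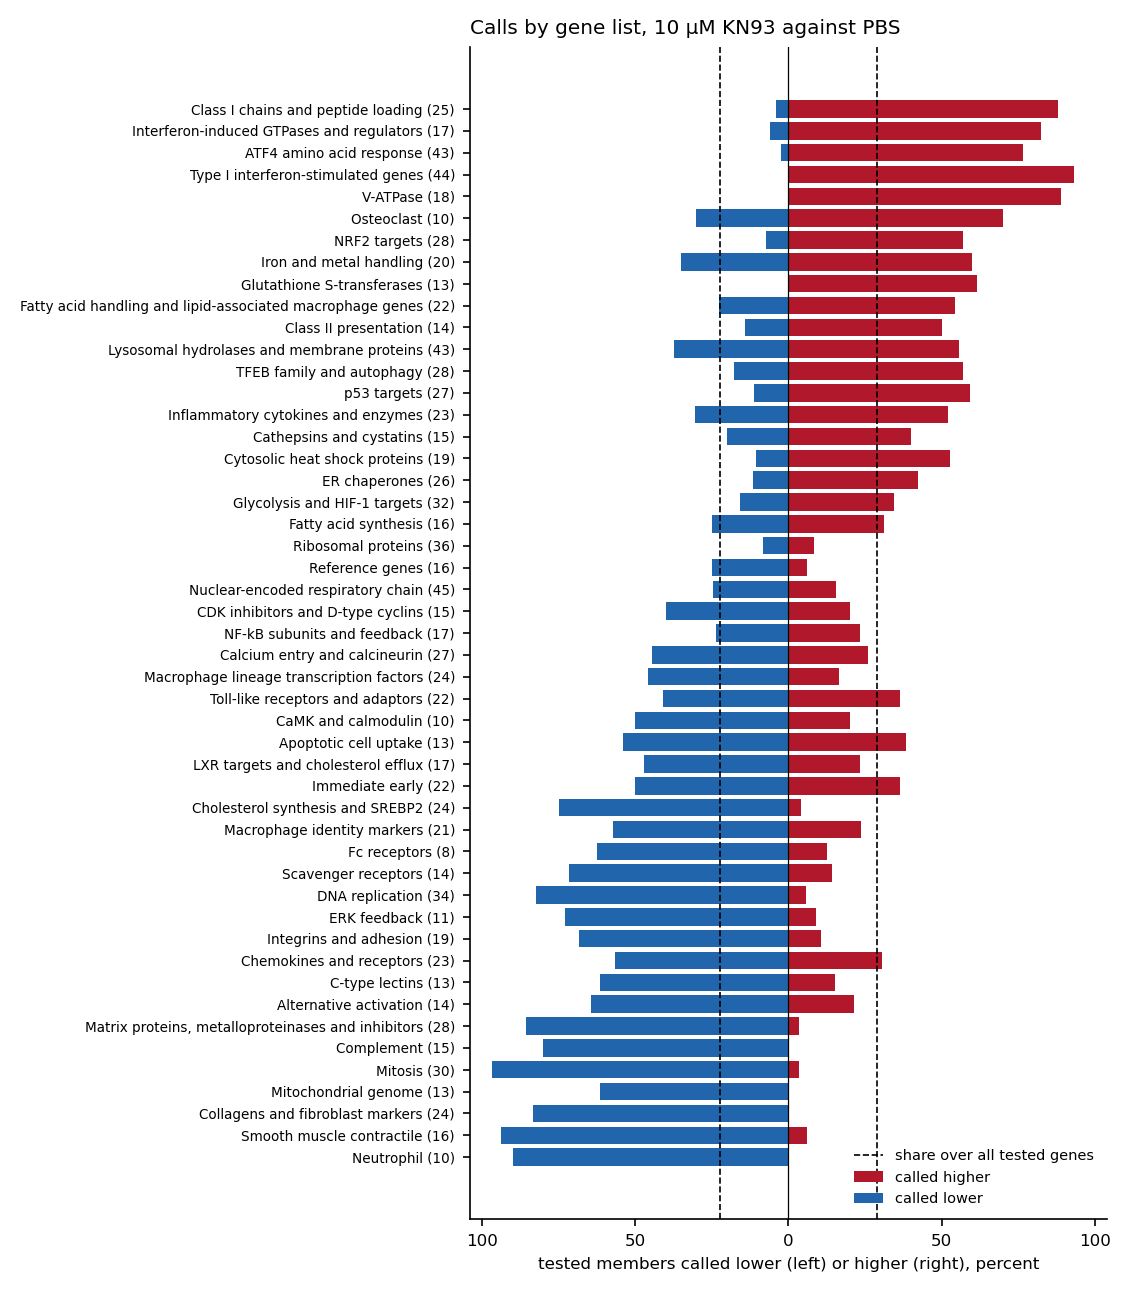
Share of the tested members called higher (red, right) or lower (blue, left) in each gene list with at least 8 tested members, the number in brackets, ordered by median log2 change. Dashed lines mark the shares over all tested genes, 29.0% higher and 22.4% lower. Class I, interferon, ATF4 and V-ATPase lists stand at the top, and neutrophil, smooth muscle, collagen, mitochondrial genome and mitosis lists at the bottom.

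Macrophage markers split. Cd68, the lysosomal membrane protein used as a general macrophage marker, rose from 842 and 861 to 1396 and 1511 FPKM, and Mpeg1, the pore-forming perforin-2, from 968 and 990.3 to 1228 and 1231 FPKM. Adgre1, which encodes the F4/80 antigen, fell from 1049 and 913 to 343 and 339 FPKM, Itgam, the CD11b integrin chain, from 54.7 and 50.5 to 12.5 and 12.9 FPKM, and Aif1 from 112 and 100.5 to 21.3 and 22.1 FPKM. Csf1r, the CSF1 receptor that macrophage survival depends on, fell from 657 and 642 to 327 and 363 FPKM (log2 change -0.91 ± 0.07, limma adjusted p = 0.000204). All of these markers were measured in every sample, also where they fell, and the tissue label reads bone marrow. The call of Mpeg1 was lost with no filter on low values and without the PBS replicate 1 (highest limma adjusted p = 0.0998). The Fc receptor gene Fcgr1 (-0.08, limma adjusted p = 0.471) and Sirpa (0.08, limma adjusted p = 0.268) did not pass. Over the identity markers 5 of the 21 tested members rose and 12 fell, with a median log2 change of -0.46.

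The transcription factors of the lineage were split as well. Spi1, which encodes PU.1, the master regulator of macrophages, stood at 112 and 103 FPKM with PBS and 100.3 and 108 FPKM at 10 µM and did not pass (log2 change -0.05 ± 0.06, limma adjusted p = 0.578), and neither did Cebpa (0.16) or Runx1 (0.06). Maf, which restrains self-renewal in mature macrophages, fell from 61.6 and 61.5 to 22.6 and 20 FPKM. Id3 (-1.50), Mef2c (-0.99) and Cebpd (-0.96) were lower too. Bhlhe41 rose from 3.53 and 4.59 to 23.9 and 25.3 FPKM, and its relative Bhlhe40 (1.08) and Id2 (0.99) were called higher. Across the list 4 of the 24 tested members rose and 11 fell, with a median log2 change of -0.14.

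Receptors for recognition and uptake were mostly lower, each family with exceptions. Of the scavenger receptors, 2 of the 14 tested members rose and 10 fell, with a median log2 change of -0.60. Mrc1, the mannose receptor, fell from 76.5 and 71.7 to 16.9 and 13.5 FPKM, and Cd163, the haemoglobin scavenger, from 1.3 and 1.59 to 0.0455 and 0.0323 FPKM. Stab1 (-1.51) and Msr1 (-0.97) also fell, and Cd36 did not pass (-0.19, limma adjusted p = 0.0915). In the C-type lectins 2 of the 13 tested members rose and 8 fell, with a median log2 change of -0.82. Clec4a2 and Clec4a1, lectin receptors of 1 gene cluster, fell from 49.9 and 39.4 to 5.16 and 4.74 FPKM and 164 and 119.6 to 35.3 and 28.1 FPKM. Clec4e, which encodes Mincle, a sensor of mycobacterial glycolipids and of dying cells, went the other way, with 12.9 and 10.8 FPKM with PBS, 18.9 and 16.7 FPKM at 5 µM and 66.1 and 65.9 FPKM at 10 µM (log2 change 2.39 ± 0.09, limma adjusted p = 3.47e-05). Clec7a, the β-glucan receptor dectin-1, did not pass (-0.08, limma adjusted p = 0.534). Of the Fc receptor genes, Fcgr3 (-1.20), Fcgr4 (-0.77) and Fcgrt (-1.36) fell, while Syk, the kinase downstream of them, rose (0.38).

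Complement genes fell as a group: 12 of the 15 tested members were lower, with a median log2 change of -1.10, and the other 3 did not pass. C1q, whose chains bind immune complexes and apoptotic cells, fell in all 3 chains, C1qa from 1091 and 1097 to 148 and 162 FPKM, C1qb by 1.96 and C1qc by 2.14 on the log2 scale. Cfp, properdin of the alternative pathway, fell from 511 and 471 to 59.7 and 62.2 FPKM. C5ar1, the receptor of the C5a fragment, was lower too (-1.55), and C3 fell less (-0.45). In the uptake of apoptotic cells the bridging proteins Gas6 (-0.61) and Pros1 (-1.11) and the receptor Mertk (-0.26) fell, while Axl, the related receptor, rose (0.41). The call of Mertk was lost without replicate 2 of either group (highest limma adjusted p = 0.0881). Integrin β3, Itgb3, the partner of the αv chain, rose from 1.62 and 1.48 to 7.37 and 7.44 FPKM while that chain, Itgav, and integrin β5 fell (-0.83 and -1.31). Across integrins and adhesion molecules 2 of the 19 tested members rose and 13 fell, with a median log2 change of -0.69.

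Toll-like receptor genes moved in both directions. Tlr1, Tlr2 and Tlr4, receptors for bacterial lipopeptides and lipopolysaccharide, fell (-1.16, -0.86 and -0.52), with Tlr4 going from 17.4 and 18 to 13.3 and 10.9 FPKM. Of the nucleic acid sensors, Tlr3 and Tlr7 rose (0.41 and 0.24), Tlr8 fell (-1.12) and Tlr9 did not pass (-0.19, limma adjusted p = 0.424). The call of Tlr7 was lost without either PBS replicate and without the 10 µM replicate 1 (highest limma adjusted p = 0.0716). Cd180, a Toll-like receptor relative that modulates lipopolysaccharide responses, rose from 30 and 27.8 to 86.1 and 78 FPKM, although its partner Ly86 fell (-0.80). The adaptor genes Ticam1 (0.31) and Ticam2 (1.26), which couple receptors to interferon induction, rose, and Myd88 did not pass (-0.20, limma adjusted p = 0.0831). Over the list 8 of the 22 tested members rose and 9 fell, with a median log2 change of -0.15. The NF-κB genes stayed closer to 0: 4 of the 17 tested members rose and 4 fell, with a median log2 change of -0.07, with Nfkbiz (-0.97) and the inhibitor Nfkbia (-0.50) lower and Tnip1 (0.65) higher.

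**Figure D4:**
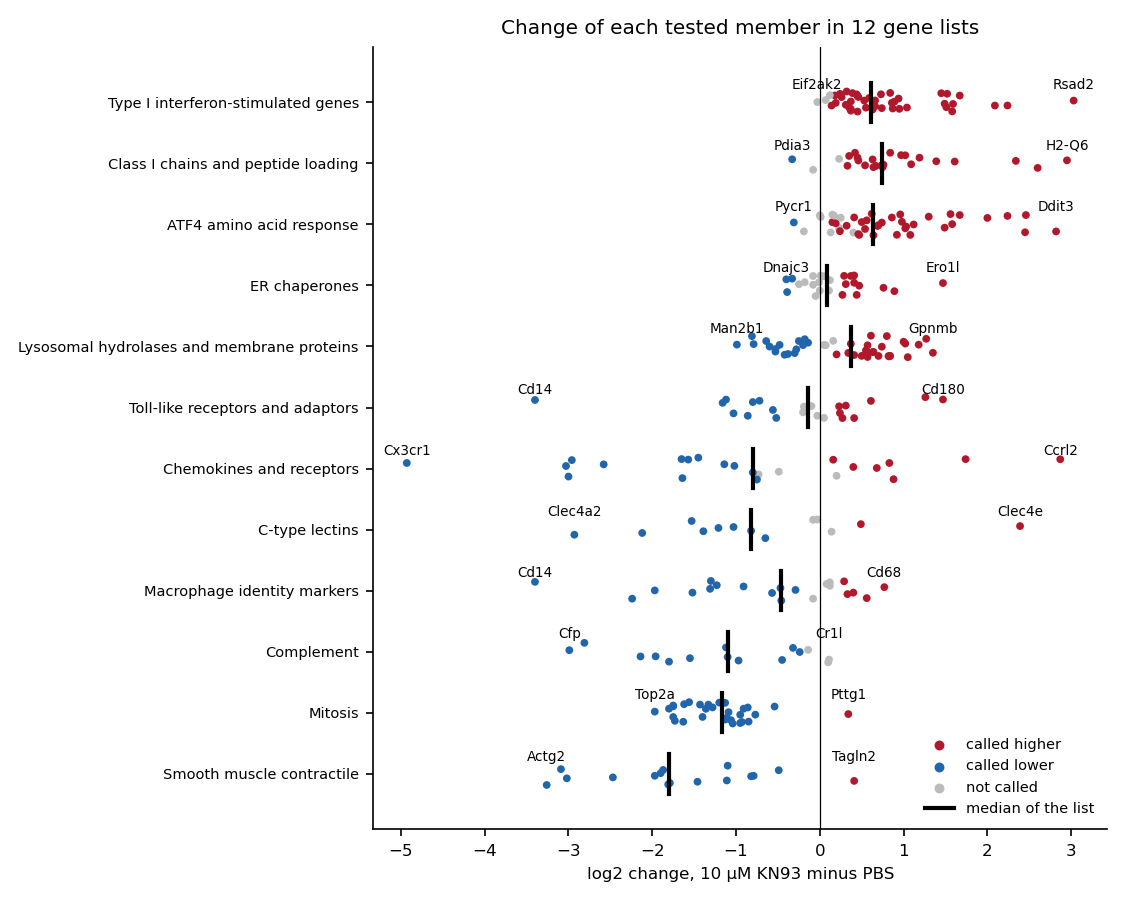
Log2 change (horizontal axis) of every tested member of 12 gene lists, red where called higher, blue where called lower and grey where not called, with a black line at the median of each list. Vertical scatter within a list only separates the points. The called interferon-stimulated genes lie to the right of 0 (Rsad2 at 3.03) and the mitosis genes other than Pttg1 to the left (Top2a at -1.97), while Toll-like receptor, chemokine, C-type lectin and macrophage identity lists spread to both sides.

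Cytokine and mediator genes rose more often than they fell: 12 of the 23 tested members rose and 7 fell, with a median log2 change of 0.27. The falls of Il1b and Saa3 stood against the rises of Orm1, Cd274, Slpi and Cd86. Cd274, the checkpoint ligand PD-L1, rose from 48.4 and 48.5 to 196 and 171 FPKM, and Cd86, a co-stimulatory ligand for T cells, from 7.52 and 8.65 to 27.6 and 26.4 FPKM. Cd40, a co-stimulatory receptor, rose (1.03) while Cd80, a ligand of the same receptors as Cd86, fell (-0.88). Il1rn, which encodes the interleukin-1 receptor antagonist, rose from 5.89 and 4.88 to 12.4 and 10.9 FPKM, opposite to Il1b. The inflammasome gene Nlrp3 fell (-1.58) and the caspase genes Casp1 (0.88) and Casp4 (1.04) rose. Tnf rose from 12.7 and 9.9 to 15 and 16.2 FPKM (log2 change 0.44 ± 0.11, limma adjusted p = 0.0215), Acod1, the itaconate enzyme, rose (1.25), and Il1a did not pass (-0.11, limma adjusted p = 0.388). The call of Tnf was lost with no filter on low values, without the PBS replicate 2 and without either 10 µM replicate, and that of Acod1 without the 10 µM replicate 1 (highest limma adjusted p = 0.0979 and 0.0564). Il6 lay under the filter at 0.168 and 0.334 FPKM with PBS and 0 and 0.0435 FPKM at 10 µM.

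Chemokine genes fell more often than they rose. Ccl6 and Ccl9, made by resting mouse macrophages, fell from 251 and 260.3 to 32.2 and 28.9 FPKM and 114 and 102 to 14 and 12 FPKM. Pf4, platelet factor 4, fell from 915 and 1019.6 to 119.5 and 121 FPKM, and Cxcl12, the stromal ligand of CXCR4, from 16.9 and 13 to 1.73 and 1.56 FPKM. Cxcl10, an interferon-induced ligand of CXCR3, rose from 4.16 and 2.27 to 14.5 and 11.1 FPKM (log2 change 1.74 ± 0.23, limma adjusted p = 0.00196), and stood at 2.35 FPKM on average at 5 µM. Cxcl9, another ligand of CXCR3, was called higher (0.88), and Ccl2, the monocyte attractant, did not pass (-0.73, limma adjusted p = 0.0924). Of the receptors, Ccr1 and Ccr2 fell with Cx3cr1 (-1.65 and -1.14), while Ccrl2, an atypical receptor that binds chemerin, went from 7.25 and 7.36 to 57 and 63 FPKM and Cxcr4 from 55 and 75.6 to 98.5 and 136 FPKM. The call of Cxcr4 was lost with no filter on low values, without the PBS replicate 1 and without the 10 µM replicate 2 (highest limma adjusted p = 0.0615). Over the list 7 of the 23 tested members rose and 13 fell, with a median log2 change of -0.80. Alternative activation genes were mostly lower, and 3 of the 14 tested members rose and 9 fell, with a median log2 change of -0.95.

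Interferon-stimulated genes rose almost without exception. Of the 44 tested type I interferon-stimulated genes, 41 rose, with a median log2 change of 0.61, and the other 3, Eif2ak2, Trim30a and Dhx58, did not pass. Rsad2, which encodes the antiviral enzyme viperin, stood at 47 and 38.1 FPKM with PBS, 92.6 and 99.6 FPKM at 5 µM and 377 and 331 FPKM at 10 µM (log2 change 3.03 ± 0.12, limma adjusted p = 3.25e-05). Cmpk2, its neighbour on the chromosome and a nucleotide kinase, rose from 24.1 and 19.5 to 119 and 95.1 FPKM. Of the tetratricopeptide antiviral proteins, Ifit1 rose from 65.8 and 56.2 to 178 and 168 FPKM, Ifit2 from 149 and 128 to 469 and 412 FPKM and Ifit3 from 274 and 231 to 728 and 721 FPKM; Ifit3 and Ifit3b are close copies and may share fragments. Isg15, the ubiquitin-like modifier, went from 316 and 253 to 554 and 532 FPKM, and Bst2, tetherin, from 1309 and 1241 to 2271 and 2351 FPKM. The signalling genes moved less: Stat2 (0.31), Irf7 (0.19) and Irf9 (0.14) were all called higher. The call of Stat2 was lost in 3 of the 13 alternative settings, that of Irf7 in 7 and that of Irf9 in 10, each with some left-out replicates (highest limma adjusted p = 0.0869, 0.134 and 0.174). In the list of interferon-induced GTPases and regulators, 14 of the 17 tested members rose and 1 fell, with a median log2 change of 0.69. Gbp2, a guanylate-binding protein that attacks pathogen vacuoles, rose from 46.2 and 36.2 to 160.4 and 147 FPKM, and Irf8 fell (-0.38).

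The promoters of these genes are shown because the list moved in 1 direction and the interferon response element has a known sequence. Promoter windows of 250 bases before to 50 after the start came from RefSeq on GRCm38.p6, 11095 windows of 8709 tested genes. The motif searched was GAAANNGAA on both strands. It was found in 21 of the 40 promoter windows of the type I list (52.5%), beside 7.5% of the windows of all tested genes and 8.6% of those of all genes called higher. In the GTPase list 8 of 13 windows held it (61.5%). It was also in 6 of 16 windows of the macrophage identity markers (37.5%) and 9 of 30 of the ribosomal proteins (30.0%). Those 2 lists had median log2 changes of -0.46 and 0.02. Such a match describes the letters and shows no binding. The 250 bases before the start follow, 5′ to 3′, with matches in capitals, for 2 members chosen because they hold the motif.
Rsad2 (GRCm38 chr12:26456453-26456702, minus strand): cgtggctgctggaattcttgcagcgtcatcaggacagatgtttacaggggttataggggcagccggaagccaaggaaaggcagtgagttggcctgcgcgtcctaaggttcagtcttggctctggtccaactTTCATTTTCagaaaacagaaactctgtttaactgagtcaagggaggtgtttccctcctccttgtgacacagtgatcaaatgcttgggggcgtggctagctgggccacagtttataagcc
Ifit3 (GRCm38 chr19:34583279-34583528, plus strand): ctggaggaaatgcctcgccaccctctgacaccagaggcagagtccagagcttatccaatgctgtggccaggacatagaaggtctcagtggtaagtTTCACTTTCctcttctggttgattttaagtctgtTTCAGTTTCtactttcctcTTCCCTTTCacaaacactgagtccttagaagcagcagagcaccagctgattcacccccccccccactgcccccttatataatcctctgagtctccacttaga
Rsad2 held 1 match, 119 bases before its start, and Ifit3 held 3 between 102 and 155 bases before.

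Most class I genes rose, and class II genes rose more often than they fell. In the class I list 22 of the 25 tested members rose and 1 fell, with a median log2 change of 0.74. The classical chains H2-K1 and H2-D1 rose from 1308 and 1301 to 2040.4 and 2120.2 FPKM and 1499.6 and 1472 to 2575 and 2748 FPKM, Tap1, a subunit of the peptide transporter, from 50.5 and 45.1 to 94.1 and 95.1 FPKM, and Psmb8, an immunoproteasome subunit, from 108 and 105 to 171 and 185 FPKM. H2-Q6 (30.1 and 29.6 to 241 and 235 FPKM) and H2-Q7 (22.3 and 21.8 to 136 and 142 FPKM) had the largest changes on the log2(FPKM + 1) scale, but these nonclassical genes are near-identical copies that can share fragments. B2m, the common light chain, did not pass (0.23, limma adjusted p = 0.0567). Of the class II genes, H2-Aa, H2-Ab1 and H2-Eb1 rose by 1.89, 1.54 and 1.57 on the log2 scale, and Cd74, the invariant chain, by 0.80. Ciita, their master regulator, went from 0.172 and 0.189 to 1.94 and 1.5 FPKM. Lgmn, a lysosomal protease that trims the invariant chain, fell (-0.57), and across the class II list 7 of the 14 tested members rose and 2 fell, with a median log2 change of 0.40.

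Lysosomal genes rose and fell within 1 list: 24 of the 43 tested members rose and 16 fell, with a median log2 change of 0.37. Among the hydrolases, Naglu rose from 59 and 62.9 to 142 and 156 FPKM and Gaa, acid α-glucosidase, from 56 and 58.2 to 117 and 122 FPKM, while Man2b1, an α-mannosidase, fell from 125 and 130.1 to 60.9 and 66.5 FPKM and Gusb, β-glucuronidase, from 133 and 135 to 74 and 78.2 FPKM. Gm2a, a cofactor for ganglioside breakdown, fell (-0.79) and Psap, a cofactor of the same kind, rose (0.74). Mcoln1, the lysosomal calcium channel TRPML1, rose from 9.85 and 10.2 to 21.1 and 21.9 FPKM, and the cholesterol exporter gene Npc1 rose (0.83). Of the cathepsins, Ctsk (0.72) and Ctsz (0.89) rose, Ctsc fell from 175 and 151 to 47.9 and 42.5 FPKM, and Ctsl and Ctss did not pass (0.04 and 0.23). The proton pump was uniform, with 16 of the 18 tested V-ATPase genes higher, a median log2 change of 0.55, and the other 2 not called. Its subunit gene Atp6v0d2, known from osteoclasts, rose from 22.7 and 27.4 to 106 and 114 FPKM and Atp6v1c1 from 27 and 28.4 to 61.8 and 63.4 FPKM.

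Regulators of lysosome formation and autophagy genes rose more often than they fell. TFEB, TFE3 and MITF are factors that switch on lysosomal genes when the nutrient sensor mTORC1 releases them. Tfeb rose (0.62), Tfe3 fell (-0.24) and Mitf did not pass (0.18, limma adjusted p = 0.0547). Rragd, one of the GTPases that tie mTORC1 to the lysosome, rose from 1.01 and 1.71 to 12.3 and 13 FPKM (log2 change 2.55 ± 0.14, limma adjusted p = 8.44e-05). Its relative Rragc (0.97) and the genes Flcn (0.63) and Fnip2 (1.40) rose too. The autophagy receptors Sqstm1 and Optn went from 134 and 144 to 458 and 471 FPKM and 4.87 and 5.21 to 18.4 and 19.5 FPKM, while the core genes Map1lc3b and Becn1 did not pass (-0.06 and -0.05). Over the list 16 of the 28 tested members rose and 5 fell, with a median log2 change of 0.28.
The TFEB recognition sequence CACGTGAC, on either strand, was in 8 of the 37 promoter windows of the lysosomal hydrolases and membrane proteins (21.6%), beside 4.4% of the windows of all tested genes. In the TFEB family and autophagy list it was in 1 of 31 windows (3.2%), and it was in 5.5% of the windows of genes called higher and 3.0% of those called lower. Windows of Sgsh and Glb1, which fell, held it as well. Mcoln1 with 2 matches and Naglu with 1 are printed as members that rose.
Mcoln1 (GRCm38 chr8:3500269-3500518, plus strand): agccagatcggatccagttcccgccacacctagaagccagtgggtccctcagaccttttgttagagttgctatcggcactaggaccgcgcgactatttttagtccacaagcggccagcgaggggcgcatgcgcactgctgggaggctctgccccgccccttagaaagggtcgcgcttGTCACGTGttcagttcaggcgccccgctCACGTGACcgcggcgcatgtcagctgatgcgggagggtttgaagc
Naglu (GRCm38 chr11:101069844-101070093, plus strand): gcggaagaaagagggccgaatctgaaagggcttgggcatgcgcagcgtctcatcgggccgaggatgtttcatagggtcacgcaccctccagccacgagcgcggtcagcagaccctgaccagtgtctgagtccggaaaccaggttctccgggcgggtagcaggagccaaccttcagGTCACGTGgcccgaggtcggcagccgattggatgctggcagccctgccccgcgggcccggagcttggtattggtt

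Genes of cholesterol efflux and of cholesterol synthesis fell more often than they rose. Abca1, which exports cholesterol to apolipoproteins, stood at 69.4 and 75.4 FPKM with PBS, 32 and 33.9 FPKM at 5 µM and 10.8 and 9.79 FPKM at 10 µM (log2 change -2.70 ± 0.07, limma adjusted p = 1.24e-05). Other targets of the oxysterol receptor LXR fell as well, among them Arl4c (-1.74), Pltp (-0.85) and Abcg1 (-0.34), and in the LXR list 4 of the 17 tested members rose and 8 fell, with a median log2 change of -0.26. In the synthesis pathway 1 of the 24 tested members rose and 18 fell, with a median log2 change of -0.39. Srebf2, the factor that drives the pathway, fell from 32.1 and 31.3 to 20.1 and 19.1 FPKM, and Cyp51, a demethylase of the sterol ring, from 11.2 and 12.1 to 6.65 and 6.17 FPKM. Stard4, a sterol carrier, fell as well (-1.14). The call of Abcg1 was lost with no filter on low values, without the PBS replicate 2 and without the 10 µM replicate 1 (highest limma adjusted p = 0.131). Soat1, which esterifies cholesterol for storage, rose (0.86). Fatty acid synthesis showed no common direction, with Acsl1 (1.90) and Acss2 (1.28) higher, Acly lower (-0.35) and a median of 0.05.

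Genes of the ATF4 amino acid response rose, and those of endoplasmic reticulum chaperones moved less. ATF4 is translated when the factor eIF2α is phosphorylated under stress, and induces genes of amino acid uptake and synthesis. In its list 33 of the 43 tested members rose and 1 fell, with a median log2 change of 0.64. Ddit3, which encodes CHOP, stood at 18.1 and 16.7 FPKM with PBS, 55.6 and 54.2 FPKM at 5 µM and 129 and 128 FPKM at 10 µM (log2 change 2.82 ± 0.05, limma adjusted p = 1.06e-05). Atf4 itself rose from 51 and 50.7 to 159.7 and 167 FPKM, Trib3, a pseudokinase, from 8.03 and 8.04 to 48.8 and 48.1 FPKM, Slc7a11, the cystine importer, from 1.1 and 1.56 to 10.8 and 9.24 FPKM, and Ppp1r15a, which reverses the eIF2α mark, from 6.64 and 7.1 to 30 and 31 FPKM. Gdf15, a stress cytokine, went from 6.02 and 6.75 to 37.9 and 41.6 FPKM. Several tRNA synthetases rose, with Aars at 1.12 and Sars at 1.08, and the serine synthesis genes Phgdh and Psat1 did not pass (0.23 and -0.19). For chaperones 11 of the 26 tested members rose and 3 fell, with a median log2 change of 0.09: Hspa5, the chaperone BiP, rose by 0.44 on the log2 scale, Dnajc3 fell (-0.40), and Ero1l, an oxidase for disulfide bonds, rose from 9.68 and 9.35 to 30.7 and 25.7 FPKM.
The composite C/EBP-ATF sequence TGATGNAAT, on either strand, was in 5 of the 42 promoter windows of the ATF4 list (11.9%), beside 0.4% of the windows of all tested genes. Of the members that hold it, Aars, Gars (0.50) and Nupr1 (0.98) rose, Pycr1 fell (-0.31) and Iars did not pass (0.17, limma adjusted p = 0.077). The call of Pycr1 was lost with no filter on low values, without either PBS replicate and without the 10 µM replicate 1 (highest limma adjusted p = 0.116). Aars is printed.
Aars (GRCm38 chr8:111033592-111033841, plus strand): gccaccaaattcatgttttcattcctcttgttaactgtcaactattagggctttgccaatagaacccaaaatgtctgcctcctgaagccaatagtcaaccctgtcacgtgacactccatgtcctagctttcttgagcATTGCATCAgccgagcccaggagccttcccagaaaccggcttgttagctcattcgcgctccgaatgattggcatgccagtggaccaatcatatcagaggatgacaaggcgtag

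Antioxidant genes and genes of metal handling rose more often than they fell. Of the NRF2 targets, 16 of the 28 tested members rose and 2 fell, with a median log2 change of 0.48. Nqo1, a quinone reductase, rose from 5.77 and 8.32 to 39.4 and 30.7 FPKM, Srxn1, sulfiredoxin, from 24.5 and 26.4 to 72.2 and 74.8 FPKM, Prdx1, a peroxiredoxin, from 226 and 247 to 555 and 591 FPKM, and Hmox1, haem oxygenase 1, from 264 and 310.3 to 547 and 582 FPKM. Gsr, glutathione reductase, fell (-0.48), and G6pdx fell (-0.42). Glutathione transferases Gstm1 and Gsta3 went from 58.1 and 69.8 to 255 and 293 FPKM and 0.282 and 0.439 to 3.56 and 5.01 FPKM; the Gstm genes are close paralogs. Mt2 and Mt1, the metal-binding metallothioneins, rose (2.52 and 1.11), with Mt2 going from 18.6 and 21.6 to 120.2 and 119.6 FPKM. The iron exporter gene Slc40a1 fell from 14.7 and 16.5 to 5.13 and 5.28 FPKM while both ferritin chains rose, and Tfrc, the transferrin receptor, fell (-0.34). In the iron and metal list 12 of the 20 tested members rose and 7 fell, with a median log2 change of 0.46. Of the cytosolic heat shock proteins 10 of the 19 tested members rose and 2 fell, with a median log2 change of 0.22, and the small heat shock protein gene Hspb1 fell (-1.66).
The antioxidant response element TGACNNNGC, on either strand, was in 11 of the 30 promoter windows of the NRF2 targets (36.7%), beside 14.6% of the windows of all tested genes. It was in 3 of 20 windows of the iron and metal list and 3 of 21 of the heat shock list. Other lists held it more often, 9 of 27 windows of the mitosis list (33.3%) and 6 of 22 of the class I list (27.3%). In the Prdx1 promoter printed here it overlaps an AP-1 sequence, TGAGTCA.
Prdx1 (GRCm38 chr4:116685349-116685598, plus strand): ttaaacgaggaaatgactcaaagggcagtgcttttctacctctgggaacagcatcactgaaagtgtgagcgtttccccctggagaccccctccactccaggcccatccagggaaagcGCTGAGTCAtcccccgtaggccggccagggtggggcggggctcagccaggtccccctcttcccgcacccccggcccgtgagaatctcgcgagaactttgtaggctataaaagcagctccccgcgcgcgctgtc

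Tested cell cycle genes fell almost throughout. Of the 30 tested mitosis genes 29 fell and 1, Pttg1, rose, with a median log2 change of -1.16. Top2a, DNA topoisomerase II alpha, stood at 7.05 and 6.54 FPKM with PBS and 1.15 and 0.837 FPKM at 10 µM (log2 change -1.97 ± 0.10, limma adjusted p = 5.88e-05), Plk1, a mitotic kinase, at 6.1 and 6.11 FPKM with PBS and 1.3 and 0.817 FPKM at 10 µM, and Cdc20, an activator of the ubiquitin ligase that ends metaphase, at 7.72 and 9.07 FPKM with PBS and 1.75 and 1.83 FPKM at 10 µM. These levels were low in PBS as well, and the mitosis list summed to 113 to 117 FPKM with PBS and 33.9 to 38.5 FPKM at 10 µM. Of the DNA replication genes, 2 of the 34 tested members rose and 28 fell, with a median log2 change of -0.61. Rrm2, a subunit of ribonucleotide reductase, fell from 8.11 and 7.43 to 0.985 and 0.585 FPKM, and Mcm5, of the replicative helicase, from 15.1 and 12.9 to 3.63 and 3.09 FPKM. Pcna, the replication clamp, and Cdt1, a licensing factor, went the other way, from 53.7 and 52.6 to 68.8 and 72 FPKM and 12.6 and 13.6 to 19.6 and 19.6 FPKM. Anln and Ccna2 of the mitosis list, and Rrm2, passed the filter through the PBS samples alone and could only be tested as falls. The counts and medians of both lists are in part set by such members. The D-type cyclins Ccnd1, Ccnd2 and Ccnd3 all fell (-1.62, -0.99 and -0.78), Cdkn1a, which encodes p21, rose (0.91) and Cdkn1b, p27, did not pass (-0.16, limma adjusted p = 0.0795).
The cell cycle homology region TTTGAA, on either strand, was in 22 of the 27 promoter windows of the mitosis genes (81.5%), beside 12.2% of the windows of all tested genes and 13.3% of those of all genes called lower. In the DNA replication list it was in 4 of 35 windows (11.4%). The 2 mitosis genes printed hold it near the start, Top2a at 23 and Cdc20 at 18 bases before.
Top2a (GRCm38 chr11:99024190-99024439, minus strand): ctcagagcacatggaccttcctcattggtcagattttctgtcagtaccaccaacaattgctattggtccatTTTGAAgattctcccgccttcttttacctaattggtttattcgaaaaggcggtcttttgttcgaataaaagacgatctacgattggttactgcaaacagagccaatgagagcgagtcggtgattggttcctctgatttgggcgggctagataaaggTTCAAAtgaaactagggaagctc
Cdc20 (GRCm38 chr4:118437344-118437593, minus strand): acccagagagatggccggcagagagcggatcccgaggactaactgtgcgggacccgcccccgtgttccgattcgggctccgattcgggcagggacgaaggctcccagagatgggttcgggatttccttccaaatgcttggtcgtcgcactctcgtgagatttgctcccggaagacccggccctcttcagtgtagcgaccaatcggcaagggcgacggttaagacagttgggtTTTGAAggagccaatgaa

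Targets of the tumour suppressor p53 rose more often than they fell, and 16 of the 27 tested members rose and 3 fell, with a median log2 change of 0.27. Gadd45a, a growth arrest gene, went from 5.92 and 7.38 to 36.5 and 38.7 FPKM, Bbc3, the pro-apoptotic protein PUMA, from 4.95 and 4.52 to 13.1 and 15.3 FPKM, and Mdm2, the ubiquitin ligase of p53, from 19.6 and 20.8 to 44 and 42 FPKM. Sesn1 fell from 28.4 and 26.5 to 6.86 and 6.79 FPKM while the related Sesn2, which also stands in the ATF4 list, rose (0.96). Fas did not pass (0.00, limma adjusted p = 0.986).

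Matrix and contractile genes, the marks of fibroblasts and smooth muscle-like stromal cells, were present with PBS and fell strongly. Acta2, smooth muscle actin, stood at 657 and 672 FPKM with PBS, 149 and 129 FPKM at 5 µM and 74.5 and 79.3 FPKM at 10 µM (log2 change -3.09 ± 0.08, limma adjusted p = 1.24e-05), Cnn1, calponin, at 11.7 and 13.5 FPKM with PBS and 0.65 and 0.695 FPKM at 10 µM, and Myl9, a myosin light chain, at 106 and 111 FPKM with PBS and 20.4 and 17.5 FPKM at 10 µM. Col3a1 and Col1a1, fibrillar collagen chains, went from 21.9 and 14 to 1.77 and 0.815 FPKM and 831 and 781 to 168 and 153 FPKM. Of the contractile genes 15 of 16 tested fell, and of the collagens and fibroblast markers 20 of 24, with medians of -1.80 and -1.57. The fibroblast markers Dcn and Pdgfra did not pass (-0.10 and 0.10), and Lum and Myh11 were under the filter. Summed over each list, contractile genes made 1521 to 1557 FPKM with PBS and 499.6 to 515 FPKM at 10 µM, and collagens and fibroblast markers 1937 to 2053 and 514 to 601 FPKM. Of the matrix proteins and proteases 24 of 28 fell, among them Ctgf (273 and 319 to 29.7 and 32.4 FPKM) and Mmp9 (118 and 113 to 16.9 and 18.3 FPKM), while F10, coagulation factor X, rose (4.99 and 4.65 to 24.8 and 25 FPKM). The part of stromal cells in these falls, and in those of Thbs1, Cemip, Cxcl12 and the cell cycle genes, was not tested.
The CArG box, the binding sequence of serum response factor, was in 4 of the 15 promoter windows of the smooth muscle contractile genes (26.7%), beside 1.4% of the windows of all tested genes. It was in 0 of 17 windows of the collagens and fibroblast markers and 0 of 24 of the matrix list. The alternative activation list held it in 4 of 13 windows (30.8%) and the immediate early list in 5 of 23 (21.7%). The window of Myl9 holds it 161 bases before the start.
Myl9 (GRCm38 chr2:156775214-156775463, plus strand): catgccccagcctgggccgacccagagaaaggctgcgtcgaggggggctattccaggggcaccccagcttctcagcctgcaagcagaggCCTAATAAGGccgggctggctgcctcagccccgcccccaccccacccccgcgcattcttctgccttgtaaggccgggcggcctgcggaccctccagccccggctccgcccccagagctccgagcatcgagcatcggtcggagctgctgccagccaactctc

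Neutrophil genes fell too: 9 of the 10 tested members were lower and Padi4 did not pass, with a median log2 change of -1.95. S100a8, the partner of S100a9, went from 29.6 and 30.2 to 4.29 and 6.6 FPKM, Ltf, lactoferrin, from 8.69 and 8.59 to 0.204 and 0.0613 FPKM, and Camp, the cathelicidin, from 2.5 and 2.1 to 0.109 and 0.093 FPKM. Ltf and Camp passed the filter through the PBS samples alone and could only be tested as falls. The count and median of the list are in part set by such members. The list summed to 258 to 270.1 FPKM with PBS and 76.8 to 84.6 FPKM at 10 µM, and the granule protease gene Elane stood at 0.227 and 0.0717 FPKM with PBS and 0 and 0 FPKM at 10 µM and Ly6g at 0 and 0.112 FPKM with PBS and 0 and 0 FPKM at 10 µM. Macrophages can express part of this list, and its part in the falls of S100a9, Ngp and Saa3 was not tested. Of the defining markers of other blood cells, the T cell gene Cd3e stood at 0.0091 and 0.0346 FPKM with PBS and 0.0101 and 0 FPKM at 10 µM, and the T cell gene Cd3d, the B cell precursor gene Igll1 and the erythroid gene Car1 were listed at 0 in all 4 samples. Other members of these lists were measured with PBS and fell: Cd79b, a B cell receptor chain, went from 7.87 and 7.74 to 1.24 and 1.72 FPKM, and Mcpt8, a basophil protease, from 4.17 and 4.07 to 1.37 and 1.09 FPKM. Few members passed the filter, 4 of 21 in the T and NK cell list, 2 of 11 in the B cell list, 1 of 13 in the mast cell and basophil list and 2 of 15 in the erythroid and megakaryocyte list, and all of these tested members fell. The call of Ebf1, a B cell transcription factor, was lost without replicate 2 of either group (highest limma adjusted p = 0.0577). The B cell list summed to 10.9 to 11.7 FPKM with PBS and 2.58 to 2.61 FPKM at 10 µM, and the T and NK cell list to 48.3 to 55.2 and 12.3 to 12.5 FPKM. In these lists too, a member that passed the filter through PBS alone could only be tested as a fall. The part of such cells in other falls was not tested. Granzyme genes Gzmd (-2.43), Gzme (-1.83) and Gzmc (-1.69) fell, in a family whose copies can share fragments. Platelet genes Ppbp and Pf4 fell (-3.12 and -3.00). Of the endothelial markers, Vwf and Kdr rose (3.14 and 1.32), Pecam1 fell (-2.41) and Cdh5, the defining cadherin, stood at 1.08 and 0.772 FPKM with PBS and 0.364 and 0.36 FPKM at 10 µM.

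**Figure D5:**
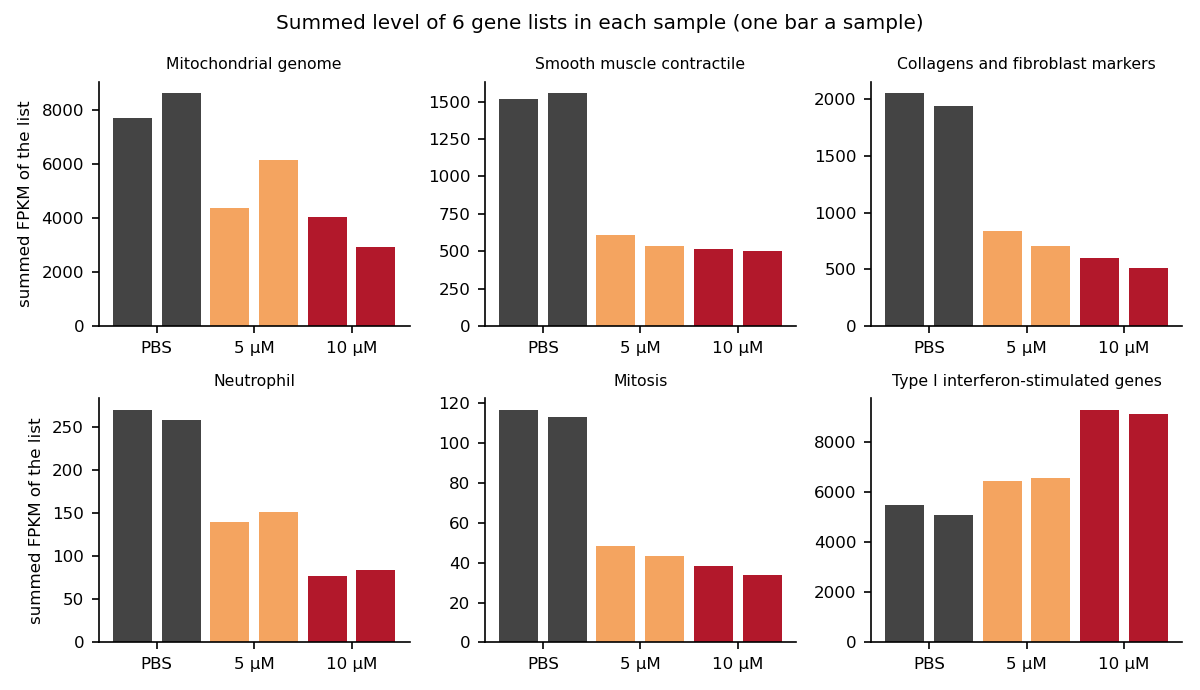
Summed FPKM (vertical axis, from 0) of 6 gene lists in each sample, 1 bar a sample, grey for PBS, orange for 5 µM and red for 10 µM. The stromal, neutrophil and mitosis sums are lowest at 10 µM and the interferon sum is highest there, while the mitochondrial sum differs between the 2 samples of each KN93 dose.

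Transcripts of the mitochondrial genome were lower, with a wide spread. Of the 13 tested mitochondrial protein genes 8 fell and the other 5 did not pass, with a median log2 change of -1.35. mt-Co1, a cytochrome c oxidase subunit, stood at 2723 and 2759 FPKM with PBS and 1640.4 and 1457 FPKM at 10 µM and mt-Co2 at 1524 and 1529.7 FPKM with PBS and 669 and 277 FPKM at 10 µM, and the 10 µM samples lay far apart for mt-Co2. The summed level of the list was 7712 to 8622 FPKM with PBS and 2939 to 4049 FPKM at 10 µM. Respiratory chain subunits encoded in the nucleus showed no such fall: 7 of the 45 tested members rose and 11 fell, with a median log2 change of -0.02. FPKM values are scaled to the fragments of the library, and a lower mitochondrial share leaves more of these fragments to other genes. The part of this in the small rises was not tested. With median-of-ratios scaling, the median over all genes was 0.0 and 47.9% of the calls were rises, beside 56.5% in the values given above.

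Signalling genes downstream of calcium and growth factors moved in both directions. Of the immediate early genes, 8 of the 22 tested members rose and 11 fell, with a median log2 change of -0.32. Fos, a subunit of the AP-1 factor, fell from 38.1 and 38 to 7.83 and 7.07 FPKM and Zfp36l1, which destabilizes mRNAs, from 48 and 49.6 to 12.2 and 10.3 FPKM, while Klf4 (1.23), Fosl1 (1.10) and Egr1 (0.67) rose. The phosphatase Dusp6, a feedback inhibitor and readout of ERK, fell from 40 and 45.6 to 8.03 and 7.53 FPKM, and Etv5, an ERK-induced factor, from 21.8 and 22.9 to 4.7 and 3.48 FPKM. Dusp4, a related phosphatase, rose from 2.08 and 2.52 to 12.8 and 10.8 FPKM (log2 change 1.96 ± 0.13, limma adjusted p = 0.000168). In the ERK feedback list 1 of the 11 tested members rose and 8 fell, with a median log2 change of -0.64. The call of Spry2 (-0.44) was lost without the PBS replicate 2 and without the 10 µM replicate 2 (highest limma adjusted p = 0.0617). Of the calcium genes, Trpm2, a calcium channel opened by oxidative stress, fell (-1.44), the store-operated channel gene Orai1 fell (-0.34), and Ppp3cc, a calcineurin catalytic subunit, rose (0.74). Nfatc2, a factor that calcineurin activates, fell (-0.95), and Rcan1, the calcineurin feedback gene, did not pass (-0.09, limma adjusted p = 0.364).

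Housekeeping lists lay near 0. For the ribosomal proteins 3 of the 36 tested members rose and 3 fell, with a median log2 change of 0.02. Glycolysis and hypoxia genes had a median of 0.06: Ldha and Eno1 did not pass (-0.06 and -0.14), Hif1a fell (-1.12) and Ndrg1 rose (1.63). Genes often used as references were not all stable. Gapdh stood at 13.3 and 15.2 FPKM with PBS and 15.2 and 18.4 FPKM at 10 µM and did not pass (0.22, limma adjusted p = 0.133), Tbp did not pass (0.09), and Actb (-0.57) and Gusb (-0.81) fell. The call of Hprt (-0.21) was lost without either PBS replicate and without the 10 µM replicate 1 (highest limma adjusted p = 0.0974).

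The steps from PBS to 5 µM and from 5 µM to 10 µM are given for 6 genes, chosen after their values were seen, and these comparisons share samples. Cxcl10 had a log2 change of -0.30 between 5 µM and PBS (limma adjusted p = 0.383) and of 2.03 between 10 µM and 5 µM (limma adjusted p = 0.00447). For Itgb3 these were 0.27 and 1.45, for Clec4e 0.55 and 1.83, and for Marco -1.69 and -3.91 (limma adjusted p for the second step = 0.00046, 0.000609 and 1.11e-05). Il1b had the reverse order, -3.44 and then -0.45 (limma adjusted p for the second step = 0.332). Gpnmb went 1.17 and then 0.18 (limma adjusted p for the second step = 0.121).

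Calls were spread over gene classes and chromosomes. Among the 10555 tested protein-coding genes 30.8% rose and 23.5% fell. Of 725 processed pseudogenes, which can take fragments of their parent genes, 15.6% rose and 15.3% fell. Genes in the lowest class of mean level, under 5 FPKM, had 23.1% called higher and 20.4% lower, and those of 20 to 100 FPKM 34.6% and 28.0%. On the mitochondrial chromosome 14 of 24 tested entries fell and the other 10 did not pass. On chromosome X, 21.9% rose and 26.9% fell. These shares were not tested against each other.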

How the data were processed

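RNA sequencing of 6 samples was deposited by the authors as 1 table of FPKM values per gene, 2 samples each of PBS, 5 µM and 10 µM KN93. Per the submitters' processing notes, HISAT2 and the GRCm38 build were used; versions, the counting tool and the use of strand are not named there or in the labels, so overlapping and antisense genes may share fragments. Depth was estimated from the steps of low values: 98.78 to 98.96% of them were whole fragments within 0.1 of a fragment. Depth sets the precision of low genes.

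Entries with 1 FPKM or more in at least 2 of the 4 samples of PBS and 10 µM were tested with limma 3.58.1 (R 4.3.3) on log2(FPKM + 1), a pseudocount of 1. All 6 samples entered 1 fit with a mean-variance trend, which gave 3 residual degrees of freedom, and the contrast was 10 µM minus PBS, two-sided, with Benjamini-Hochberg adjustment and a threshold of 0.05. The standard error follows ± after a log2 change.

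Named genes were the 12 largest rises and falls, the 8 largest changes in FPKM each way, the leading genes that crossed 1 and 5 FPKM, and members of gene lists; gene models with a Gm number were not named. The members and lists were chosen with earlier results of these data known. Lists are described by counts and medians, with no set test. Promoters came from RefSeq tables for GRCm38.p6, and 69.5% of tested genes had one. Alternatives were another pseudocount, filters, scalings, no trend, the 4 samples alone, a replicate block, voom on recovered fragments and each replicate left out.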

Additional observations from a re-analysis of the deposited data

How the results depend on the processing

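The direction of every gene called in the values above and in an alternative was the same in both. The count of called genes, 6442, was 6399 with a pseudocount of 0.1, 6134 with no filter, 4590 of 7612 genes with a filter of 5 FPKM, 6189 with median-of-ratios scaling, 6447 with quantile normalization, 6375 without the trend, 6009 with the 4 samples alone and 6542 with voom. With voom the count of at least 2-fold changes was 1529 (999 in the values above), of which 970 were falls (605 above). Leaving out 1 replicate gave 4655 to 5579 calls, with the lone sample assumed to vary like the other groups. Deviations of same-numbered samples correlated at 0.003 to 0.042 across genes, which cannot show whether such samples share an animal or batch. The fit with the replicate block called 6067 genes. Medians of lists near 0 changed sign: fatty acid synthesis to -0.10 and the nuclear-encoded respiratory chain to 0.03 without the 10 µM replicate 1 (0.19 and -0.07 when the other sample of 10 µM was left out), and ribosomal proteins to -0.05 with median-of-ratios scaling, -0.01 with voom and -0.08 without the 10 µM replicate 2; the cause was not tested. Over the 49 lists and 13 alternatives, 60 other medians moved by more than the spread between replicates and 572 did not, and of the counts of members that rose or fell 87 moved by over 1.5 times and 1187 did not. Of 374 called genes followed by name, 347 kept their call in every one of the 13 alternatives that tested them. Most of these named genes were picked for a large change or a small p-value, so their share does not describe all calls. Over all genes, 5770 of the 6442 calls were kept with median-of-ratios scaling and 5112 with no filter. With 2 samples a group, the spread and, for low genes, the depth limit which small changes could be called.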
